A study of Mus musculus with 12 samples.

Results

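The cell cycle genes described here are 36 genes listed by symbol, and 35 of them could be read in the livers of 12 mice. They were taken from the 12393 genes measured on an Affymetrix mouse array that had at least 1 probe set (a group of short probes read together) with a single gene symbol. Ccnb1 had none and is not reported. By role, 11 of 11 listed genes act in DNA replication, 18 of 19 in mitosis, 5 of 5 in entry into the cycle and 1 of 1, Cdkn1a, as an inhibitor. Where a gene had several probe sets, as 20 of the 35 did, the one with the highest mean over the 12 arrays was read. The rule used no difference between groups.

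Male C57BL/6 mice aged 12 weeks were studied in 4 groups of 3, with 1 array of total liver RNA per mouse. WT mice were wild type on a normal diet, and WT_RA mice were wild type on a diet with all-trans retinoic acid (RA), the active form of vitamin A, at 150 mg per kg of diet for 7 days. KO and KO_RA mice, fed these same diets, had no functional retinoid X receptor alpha (RXRα) in their hepatocytes. In the KO mice a Cre recombinase under the albumin promoter removes exon 4 of the floxed gene, so cells of the liver other than hepatocytes keep the receptor. A truncated protein with the ligand binding domain but without the DNA binding domain is still made in hepatocytes. The arrays read whole liver, so fewer cells of a type and less RNA per cell cannot be told apart. The values are log2 units, in which a difference of 1 is a doubling.

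A cell that enters the cycle makes D and E cyclins, which lead to phosphorylation of the retinoblastoma protein and release E2F transcription factors. E2F turns on the genes of DNA synthesis, among them the 6 subunits of the MCM2-7 helicase that unwinds DNA and Pcna, the sliding clamp of the polymerases. Later in the cycle FOXM1 and the MuvB complex turn on the genes of mitosis, among them Cdk1 and its cyclins. Cdkn1a encodes p21, which binds cyclin-dependent kinases and stops the cycle, and is a classic target of p53. Adult hepatocytes rest outside the cycle and re-enter it after injury or loss of tissue.

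Medians of the arrays lay between 6.26 and 6.35, and albumin, the marker of hepatocytes, was at 13.8 to 14.0 on each. Rxra itself was read at 10.8, 10.5 and 10.4 in WT mice and at 10.1, 10.7 and 10.8 in KO mice, so the arrays did not show the deletion (difference of -0.03 ± 0.18 (SE), limma adjusted p = 0.949). Where its probes lie relative to the deleted exon was not determined here, and the genotype rests on the labels. In the control probe sets of Actb, WT_RA 3 and KO 1 were apart from all others, the 3' set reading 9.40 and 9.12 against 12.1 to 12.9. Each count of cell cycle genes called was repeated without both, and changed in 1 comparison, as given there.

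The cell cycle genes were dimmer than the genes of the array as a whole, and many mitosis genes were read near its floor. The lower quartile of all probe sets, by their mean over the 12 arrays, was 4.95 and their median 6.31. Of the 35 cell cycle genes, 12 (34.3%) lay below the former value and 10 (28.6%) at or above the latter, against 18.2% and 57.5% of all 12393 genes. The mitosis genes were the dimmest, with a median level of 4.97 and 9 of 18 below the lower quartile. For comparison, 44 genes of tissues other than liver had a median level of 5.01, and the 31 olfactory receptors among all genes one of 4.91. Mki67, the proliferation antigen used to stain cycling cells, was read at 3.84 to 4.59 over all 12 arrays, and Top2a, which untangles replicated DNA, at 4.57 to 4.93. Only 2 mitosis genes were at or above the median probe set, namely Cks2 at 8.17 and Cdc20, the activator of the anaphase-promoting complex, at 6.90. Levels of different genes depend on their probes as well as on their RNA, so they place a gene against the floor and do not rank genes by abundance.

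Replication genes stood higher, with a median level of 5.86. Pcna was read at 9.01, Tk1, the thymidine kinase of the salvage pathway, at 8.77, Mcm7 at 7.72 and Rrm1, the large subunit of ribonucleotide reductase, at 6.35. Below the lower quartile were Mcm5 at 4.10 and Tyms, thymidylate synthase, at 4.45. Of the entry genes, cyclin D1 (Ccnd1) was at 7.57, the transcription factor Foxm1 at 6.76, cyclin E1 (Ccne1) at 6.67, E2f1 at 5.65 and cyclin E2 (Ccne2) at 3.74. Cdkn1a was at 7.53 and varied most, from 6.61 to 9.43.

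**Figure D1:**
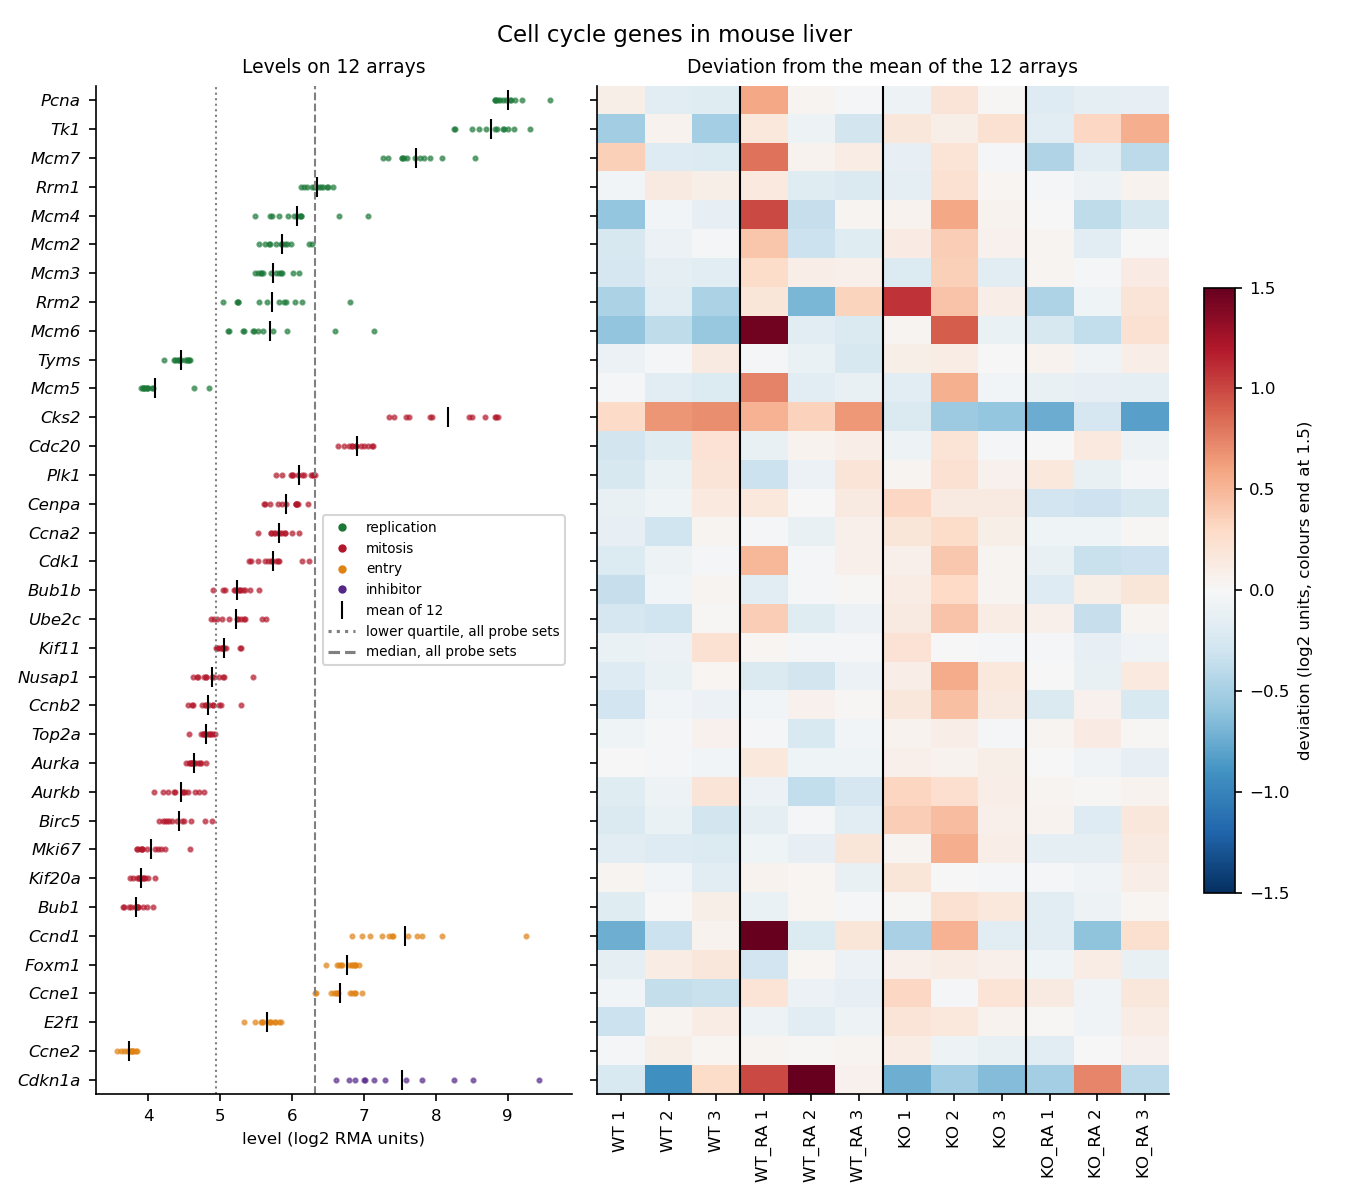
Left, the level of each of the 35 cell cycle genes on the 12 arrays in log2 units (dots), with the mean of the 12 arrays (bar) and the lower quartile (4.95) and median (6.31) of all probe sets. Right, the deviation of each array from the gene's own mean in log2 units: WT_RA 1 and KO 2 are high for the MCM genes, and Cks2 is low on all KO and KO_RA arrays.

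The promoters of these genes were read from RefSeq (assembly GRCm38.p6), which held 29 of the 36. Over 250 bases before the start of the transcript, 4 patterns of letters were counted on either strand. They were the E2F letters TTTGGCGC, TTTCGCGC, TTTCCCGC or TTTGCCGC, the cell cycle homology region (CHR) TTTGAA or TTCGAA, to which the MuvB complex binds, CCAAT, to which NF-Y binds, and the retinoid half-site AGGTCA or GGGTCA. A gene counted if any of its promoters held the letters, and the shares beside are of all 27025 genes with a promoter. The E2F letters stood in 3 of 10 replication genes (Mcm5, Mcm6 and Mcm7) and in 1 of 16 mitosis genes (Cdk1), against 2.16% of all. CHR letters stood in 8 of 16 mitosis genes and 2 of 10 replication genes, against 19.6% of all, and CCAAT in 14 of 16 and 8 of 10, against 37.5%. Retinoid half-sites stood in 6 of the 29, against 26.4% of all. A match describes the letters and is not evidence that a factor binds there.

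For the genes whose values the comparisons turn on, the 150 bases before the start are shown 5′ to 3′ on the strand of the gene, in lower case, with capitals for E2F, CHR and CCAAT letters on either strand. Mcm6 (chr1:128359706-128359855, minus strand) and Mcm5 (chr8:75109359-75109508, plus strand) represent the MCM genes. Cdk1 (chr10:69352913-69353062, minus strand) holds all 3 kinds, and Ccnb2 (chr9:70421555-70421704, minus strand) shows CCAAT letters 3 times, its match to the CHR letters lying further upstream. Cks2 (chr13:51645082-51645231, plus strand) holds CCAAT on both strands and neither E2F nor CHR letters in this stretch.
Mcm6: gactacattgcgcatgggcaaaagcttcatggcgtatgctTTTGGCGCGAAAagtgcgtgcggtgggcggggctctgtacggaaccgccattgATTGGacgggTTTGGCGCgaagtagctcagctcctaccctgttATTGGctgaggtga
Mcm5: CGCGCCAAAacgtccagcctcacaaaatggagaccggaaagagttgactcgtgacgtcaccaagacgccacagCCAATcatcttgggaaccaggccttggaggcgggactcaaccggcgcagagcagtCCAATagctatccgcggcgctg
Cdk1: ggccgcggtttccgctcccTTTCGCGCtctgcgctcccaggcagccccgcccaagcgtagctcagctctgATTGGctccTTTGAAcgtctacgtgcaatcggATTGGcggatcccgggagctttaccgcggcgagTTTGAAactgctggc
Ccnb2: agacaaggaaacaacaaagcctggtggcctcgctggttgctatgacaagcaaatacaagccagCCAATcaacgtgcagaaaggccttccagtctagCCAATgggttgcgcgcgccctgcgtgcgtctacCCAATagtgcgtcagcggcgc
Cks2: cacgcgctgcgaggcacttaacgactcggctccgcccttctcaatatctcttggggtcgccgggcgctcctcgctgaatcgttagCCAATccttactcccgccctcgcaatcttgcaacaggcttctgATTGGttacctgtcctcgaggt

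The first comparison asked what RA did to these genes in wild type liver. Mean levels of most replication genes and of Ccnd1 were higher in WT_RA mice, a single array stood far above the others, and no cell cycle gene passed the test. Mcm6, the MCM subunit with the largest spread, was read at 5.11, 5.32 and 5.12 in WT mice and at 7.14, 5.52 and 5.48 in WT_RA mice. All 3 WT_RA arrays lay above all 3 WT arrays, but WT_RA 1 stood 1.64 above the mean of the other two. The difference was 0.86 ± 0.39 (SE, n = 3, limma adjusted p = 0.412), and 0.32 without that array. The 6 MCM genes shared this array. Mcm4 was at 5.49, 6.02 and 5.94 in WT and at 7.06, 5.72 and 6.10 in WT_RA. Mcm5 was at 4.07, 3.94 and 3.89 in WT and at 4.84, 3.92 and 3.99 in WT_RA. Mcm7 was at 8.09, 7.53 and 7.52 in WT and at 8.54, 7.78 and 7.83 in WT_RA. In each of them WT_RA 1 was the highest of its group, as it was for 10 of 11 replication genes and 30.8% of all genes. Pcna, which is loaded where the helicase has opened the DNA, was at 9.10, 8.84 and 8.83 in WT and at 9.59, 9.05 and 8.98 in WT_RA. The array high for MCM genes was high for the clamp as well.

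**Figure D2:**
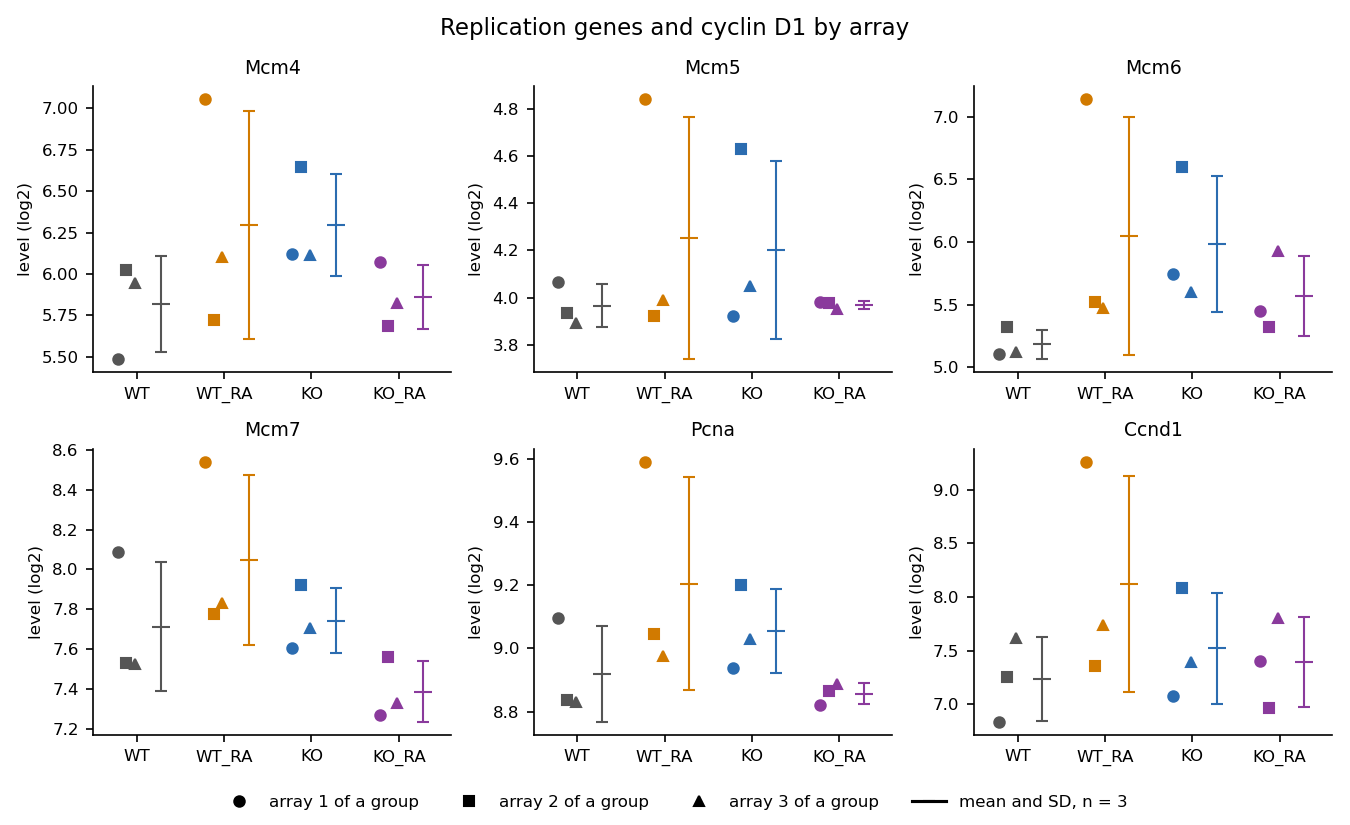
Levels of 5 replication genes and of Ccnd1 in log2 units on each array, with the group mean and SD (n = 3) beside the points. The first WT_RA array (circle) and the second KO array (square) lie highest in their groups in all 6 panels.

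In the test over all genes 1.27% were called between WT_RA and WT, at an adjusted p under 0.05, and of the 35 cell cycle genes 0 were called. At an unadjusted p under 0.05 there were 3 cell cycle genes (Mcm3, Mcm6 and Cdkn1a), against 11.7% of all genes. In 5 genes the groups did not overlap (Mcm3, Mcm6, Mki67, Ccnb2 and Cdk1, all higher in WT_RA), against 16.6% of all genes. The difference was above 0 for 24 of 35, against 47.3% of all genes. The median difference was 0.29 for the replication genes and 0.045 for the mitosis genes, beside -0.01 for all genes. Without WT_RA 1 the replication median was 0.09 and the mitosis median 0.06, so most of the gap between the lists rested on that mouse. Genes of a list varied together over the arrays, so none of these counts is a count of independent observations.

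Cyclin D1, whose induction is a first step of hepatocytes into the cycle, followed the MCM genes. It was read at 6.84, 7.25 and 7.61 in WT and at 9.26, 7.36 and 7.74 in WT_RA, and the difference was 0.89 ± 0.43 (SE, n = 3, limma adjusted p = 0.456). WT_RA 1 was far above the WT arrays, WT_RA 3 just above the highest of them and WT_RA 2 among them, and without WT_RA 1 the difference was 0.32. Its further probe sets read 7.70 and 8.61 on WT_RA 1, also the highest of the 12 arrays. Ccne1, which acts after cyclin D, was at 6.63, 6.31 and 6.33 in WT and at 6.87, 6.59 and 6.55 in WT_RA. Foxm1 was at 6.63, 6.87 and 6.94 in WT and at 6.47, 6.79 and 6.67 in WT_RA. The differences of Ccne1 and Foxm1, 0.24 and -0.17, did not pass.

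Cdkn1a had the largest difference of the 35 under RA. It was read at 7.29, 6.61 and 7.81 in WT and at 8.52, 9.43 and 7.59 in WT_RA. Of the WT_RA arrays, the first and second lay above all WT arrays and the third below WT 3. The difference of 1.28 ± 0.44 (SE, n = 3) did not pass the test (limma adjusted p = 0.234), and its 95% interval was 0.32 to 2.23. The array highest for the MCM genes was not the highest for Cdkn1a, which was WT_RA 2. A further Cdkn1a probe set gave 0.49, with the same array highest.

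The 19 measured genes of a list of other p53 targets were read beside it. Btg2, an antiproliferative gene, was at 6.55, 6.88 and 7.36 in WT and at 7.95, 8.40 and 8.31 in WT_RA. Btg2 rose by 1.29 ± 0.20 (SE, n = 3, limma adjusted p = 0.00966) with no overlap of the groups. A further Btg2 probe set was at 8.14 and 8.60 on the first and second WT_RA arrays but at 6.51 on WT_RA 3, within the WT range of 6.19 to 7.06. Fas, a death receptor, was at 7.06, 7.38 and 7.42 in WT and at 7.88, 8.18 and 8.56 in WT_RA, a rise of 0.92 ± 0.17 (adjusted p = 0.0213) that did not pass in 5 of 12 fits that left out 1 array. These were the called members of the list, of which 17 of 19 had a difference above 0, with a median of 0.31 beside -0.01 for all genes. Mdm2, which turns p53 over, was at 7.87, 7.62 and 7.65 in WT and at 7.82, 8.36 and 7.99 in WT_RA.

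Further genes of the cycle gave few calls. Of 31 other replication genes 1 was called, Mcm10, a replication initiation factor, which fell by 0.97 ± 0.21 (limma adjusted p = 0.0459, not passed in 9 of 12 fits without 1 array). Its probe set was read at 10.6, 10.7 and 10.6 in WT, far above every MCM2-7 gene, while a further Mcm10 probe set had a mean of 5.70 over the 12 arrays. Between KO_RA and KO mice Mcm10 had a similar difference of -1.02 ± 0.21, which did not pass (limma adjusted p = 0.0553). Of 41 other mitosis genes, 19 other entry genes and 6 other inhibitors 0 were called, with 1, 4 and 0 at an unadjusted p under 0.05. Of 9 immediate early genes, which respond first to growth signals, 0 were called and 4 had an unadjusted p under 0.05, Egr1 having the largest difference at 1.66 (adjusted p = 0.278).

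Markers of other cell types differed between WT_RA and WT as well. The 14 Kupffer cell and macrophage markers measured had 13 differences above 0 with a median of 0.94, and Cd14, a co-receptor for endotoxin, was called (limma adjusted p = 0.0452, not passed in 9 of 12 fits without 1 array). Their summed level on the linear scale was 2028 to 2438 on the WT arrays and 3380 to 6296 on the WT_RA arrays. Of these 14, Itgam lay below the lower quartile on every array. The 8 erythroid markers summed to 1824 to 1970 in WT and 408.5 to 1544 in WT_RA, Hba-a1, Rhag and Gata1 lying below the lower quartile on every array. Of these 8, 4 had a difference above 0 and 4 below, with a median of 0.006. By limma 1 had an unadjusted p under 0.05, so the lower sum was not a shift of the whole list. The part of these cell types in the cell cycle values was not tested. On WT_RA 1, the array high for replication genes, the Kupffer markers were the lowest of the WT_RA group (median deviation of -0.10 from the mean of the 12 arrays, against 0.05 and 0.56).

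The second comparison asked how the genes stood in livers without hepatocyte RXRα on the normal diet. Cks2 was lower in KO mice and was the only cell cycle gene called, while most mitosis and replication genes had slightly higher means there without passing the test. Cks2 encodes a small subunit that docks cyclin-dependent kinases on their substrates. It was read at 8.46, 8.84 and 8.86 in WT and at 7.95, 7.62 and 7.59 in KO mice. The groups did not overlap, and Cks2 fell by 1.0 ± 0.17 on the log2 scale (SE, n = 3, limma adjusted p = 0.0156), a halving with a 95% interval of -1.36 to -0.64. Its other probe set was at 8.54, 8.65 and 8.65 in WT and at 7.50, 7.65 and 7.50 in KO, a fall of 1.07 ± 0.08 in the fit over all probe sets (adjusted p = 0.000879). By the first probe set the call was lost in 4 of 12 fits without 1 array, namely when WT 2, WT 3, KO 2 or KO 3 was removed (adjusted p of at most 0.0732).

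Of all genes 1.32% were called between KO and WT, and of the 35 cell cycle genes 1. An unadjusted p under 0.05 was found for 12 of 35 (11 higher and 1 lower), against 16.3% of all genes. In 15 of 35 the groups did not overlap (14 higher and 1 lower), against 20.1% of all genes. The difference was above 0 for 31 of 35, against 54.9%. The median was 0.22 for the mitosis genes, with 17 of 18 above 0, and 0.24 for the replication genes, with 10 of 11 above 0, beside 0.02 for all genes. The 44 genes of other tissues had a median of 0.065 with 32 above 0. Of these 44, 21 lay below the lower quartile of all probe sets and 9 at or above the median. KO 1 was the highest of the 12 arrays for 21.3% of all genes. The part of a shift of dim genes in these values was not tested. Cks2 was the 1 mitosis gene with a difference below 0.

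Among the mitosis genes Birc5, survivin of the chromosomal passenger complex, came closest to the threshold. It was at 4.2, 4.32 and 4.14 in WT and at 4.79, 4.88 and 4.49 in KO, all below the lower quartile of the arrays (difference of 0.50, limma adjusted p = 0.0695). Nusap1, a microtubule protein of the spindle, was at 4.70, 4.80 and 4.92 in WT and at 4.99, 5.45 and 5.05 in KO. Mki67 was at 3.88, 3.85 and 3.84 in WT and at 4.09, 4.59 and 4.14 in KO. In Birc5, Nusap1 and Mki67 the KO arrays lay above the WT arrays, KO 2 was the highest of the 12, and no adjusted p was under 0.05. KO 2 was the highest of the 12 arrays for 9 of 18 mitosis genes and for 7.71% of all genes.

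Rrm2, the small subunit of ribonucleotide reductase made in S phase, had the largest positive difference. It was at 5.24, 5.54 and 5.24 in WT and at 6.80, 6.14 and 5.82 in KO, a difference of 0.91 ± 0.29 (limma adjusted p = 0.155). Here KO 1, not KO 2, was the highest. Tk1 was at 8.25, 8.82 and 8.27 in WT and at 8.94, 8.85 and 9.0 in KO, and Ccne1 at 6.98, 6.64 and 6.87 in KO. In Rrm2, Tk1 and Ccne1 the groups did not overlap. For Ccne1 and Tk1 this was narrow, the lowest KO and highest WT values being 6.638 and 6.632 for Ccne1 and 8.854 and 8.819 for Tk1. Mcm6 was at 5.74, 6.60 and 5.60 in KO, Mcm4 at 6.12, 6.65 and 6.12, Mcm5 at 3.92, 4.63 and 4.05 and Ccnd1 at 7.08, 8.09 and 7.39. KO 2 thus took the place that WT_RA 1 had in the RA group, and was the highest of its group for 9 of 11 replication genes against 26.7% of all genes. Without KO 2 the replication median was 0.06 and the mitosis median 0.175. Rrm1, at 6.31, 6.49 and 6.43 in WT and 6.21, 6.58 and 6.38 in KO, and Mcm7, at 7.60, 7.92 and 7.70 in KO, differed little, the 95% interval for Mcm7 being -0.41 to 0.48.

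Further genes of the cycle gave no call between KO and WT except for Ier2, an immediate early gene, which fell by 0.97 ± 0.19 (limma adjusted p = 0.0348, not passed in 7 of 12 fits without 1 array). Of 41 other mitosis genes 35 had a difference above 0, with a median of 0.16, and 0 were called with 9 at an unadjusted p under 0.05. Of 31 other replication genes 23 were above 0, with a median of 0.08, and 0 were called with 2 at an unadjusted p under 0.05. The 19 other entry genes and 6 other inhibitors had medians of -0.01 and 0.04 and 0 calls, with 1 and 0 at an unadjusted p under 0.05.

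Markers of other cell types of the liver also differed. The 14 Kupffer cell markers had 14 differences above 0 between KO and WT, a median of 1.22 and a summed level of 2872 to 12842 on the KO arrays, all above the WT arrays, KO 2 being highest. By limma 0 of the 14 were called and 12 had an unadjusted p under 0.05. KO 1 was the lowest KO array for this list (median deviation of -0.27, against 1.53 and 0.43). Without both WT_RA 3 and KO 1 there were 11 called, whereas without KO 2 the median was 0.68 and 0 were called. Clec4f, a lectin of mouse Kupffer cells, was read at 7.89, 7.77 and 7.77 in WT and at 7.88, 9.99 and 8.90 in KO. The 10 endothelial markers summed to 1844 to 2274 in WT and 2448 to 2773 in KO, the 10 stellate cell markers to 1726 to 2768 and 2826 to 3012, and the 8 erythroid markers to 1824 to 1970 and 2054 to 2376. The T and NK cell markers (439.3 to 516.1 and 513.8 to 626.5), neutrophil markers (476.5 to 672.8 and 594.8 to 718.1), B cell markers (315.6 to 354.3 and 299.1 to 377.8) and bile duct markers (222.4 to 232.2 and 215.7 to 250.9) overlapped. A linear sum follows its brightest markers, so counts of genes are given too. Differences were above 0 for 8 of 10 endothelial, 9 of 10 stellate and 7 of 8 erythroid markers, against 54.9% of all genes. So were 10 of 10 T and NK cell and 9 of 9 neutrophil markers. B cell and bile duct markers had 5 of 7 and 4 of 6 above 0. By limma 0 were called. An unadjusted p under 0.05 was found for 6, 1, 2, 4, 1, 0 and 0 in that order, against 16.3% of all genes. The part of these cells in the mitosis and replication values was not tested.

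**Figure D3:**
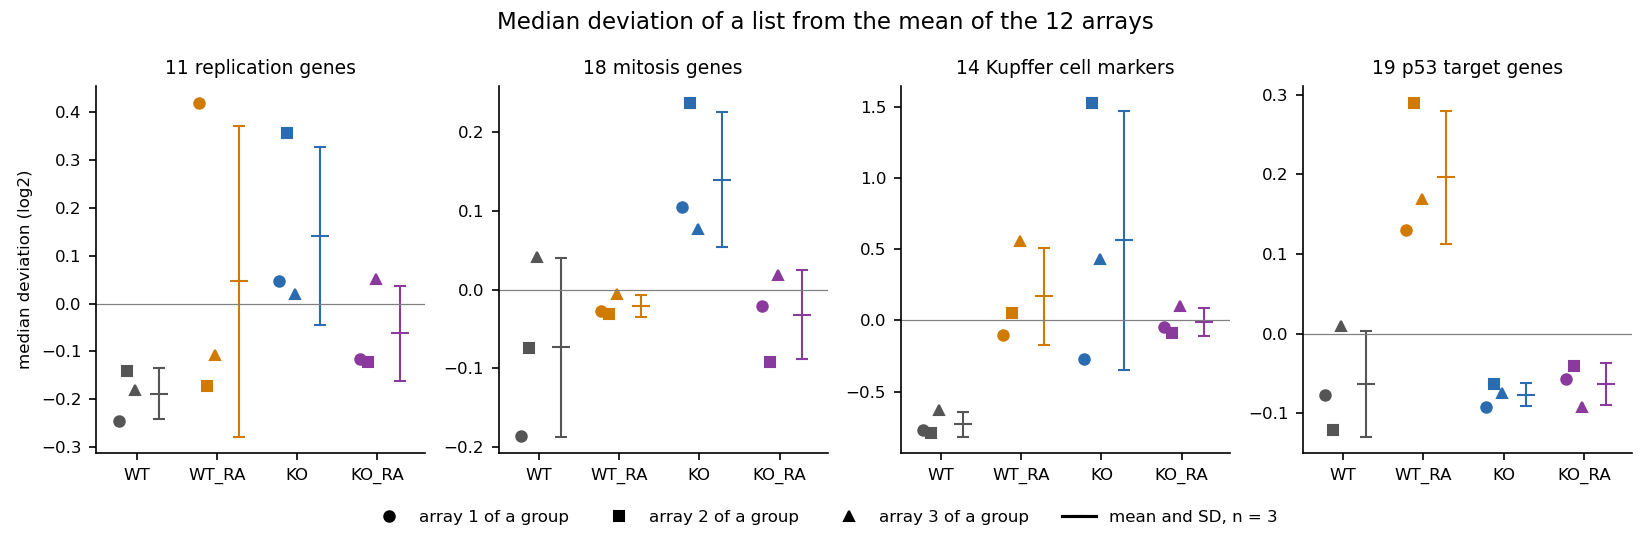
Median deviation of the genes of a list from their own mean over the 12 arrays, in log2 units, for each array with the group mean and SD (n = 3). Replication genes are high on WT_RA 1 (0.42) and KO 2 (0.36), mitosis genes on KO 2 (0.24) but not WT_RA 1 (-0.03), Kupffer markers on KO 2 (1.53), and p53 targets on all 3 WT_RA arrays.

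The lists parted on WT_RA 1. Replication genes deviated there by 0.42 and mitosis genes by -0.03, a gap of 0.45, while on the other 11 arrays the gap lay between -0.22 and 0.12. Some mitosis genes were high there too. Cdk1, the kinase of mitosis, was at 6.24 on that array against 5.72 and 5.81 on the others of the group. Ube2c, the ubiquitin-conjugating enzyme of the anaphase-promoting complex, was at 5.58 against 5.03 and 5.12. On KO 2 both lists were high together.

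The third comparison asked what RA did in livers without hepatocyte RXRα. Means of most mitosis and replication genes were lower in KO_RA than in KO mice, and again none passed the test. Of all genes 0.5% were called and of the 35 cell cycle genes 0. An unadjusted p under 0.05 was found for 6 of 35, all lower, against 14.0% of all genes, and no overlap for 12 (11 lower and 1 higher), against 20.9%. The difference was above 0 for 4 of 35, against 43.0% of all genes, with medians of -0.23 for replication genes and -0.19 for mitosis genes beside -0.03 for all genes and -0.056 for the 44 genes of other tissues (30 below 0). This comparison shares the KO arrays with the one before, so a high value on KO 2 raises the one and lowers the other. Without KO 2 the medians were -0.10 and -0.16. Kupffer markers had a median of -0.53 here (12 of 14 below 0), and -0.05 without KO 2. Endothelial markers summed to 1983 to 2057 in KO_RA, below every KO array, and Tek, the angiopoietin receptor, fell by 0.99 ± 0.15 (limma adjusted p = 0.0184, not passed in 2 of 12 fits without 1 array). Erythroid markers summed to 435.8 to 513.0 in KO_RA, below every KO array, with Alas2, the first enzyme of erythroid heme synthesis, called at -3.68 (adjusted p = 0.0405, not passed in 9 of 12 such fits). Of the 8 erythroid markers 6 were below 0, with a median of -0.15. By limma 2 of them, Alas2 included, had an unadjusted p under 0.05, so the sum describes Alas2 more than the list. The part of these cell types in the lower means of cell cycle genes was not tested. Of 41 other mitosis genes 32 were below 0 (median of -0.135) and of 31 other replication genes 26 (median of -0.18), with 0 called and 13 and 8 at an unadjusted p under 0.05.

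Cenpa, the histone that marks centromeres, came nearest. It was at 6.23, 6.06 and 6.06 in KO and at 5.63, 5.61 and 5.69 in KO_RA, so that the groups did not overlap (difference of -0.47 ± 0.09, limma adjusted p = 0.0506). Cdk1 was at 5.81, 6.14 and 5.77 in KO and at 5.63, 5.40 and 5.43 in KO_RA, and Ccnb2, a B-type cyclin, at 5.01, 5.29 and 4.98 and at 4.62, 4.90 and 4.61. These also lay apart without passing (adjusted p of 0.219 and 0.159). Cks2 was at 7.42, 7.92 and 7.35 in KO_RA, with a difference of -0.16 from KO and an interval of -0.52 to 0.21. Cdkn1a was at 6.79, 7.01 and 6.87 in KO and at 7.01, 8.26 and 7.14 in KO_RA, where KO_RA 2 stood above the others (difference of 0.58, adjusted p = 0.574). Rrm2 was at 5.25, 5.65 and 5.91 in KO_RA, and Mcm6 at 5.45, 5.32 and 5.93, within the range of the WT and KO arrays.

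The fourth comparison set KO_RA against WT_RA mice, that is, livers without and with hepatocyte RXRα on RA. Cks2 and Cenpa were lower without the receptor, and passed the test. Cks2 was at 8.69, 8.51 and 8.82 in WT_RA, all above the KO_RA arrays, and was lower by a log2 difference of -1.11 ± 0.17 (SE, n = 3, limma adjusted p = 0.00394), 2.15-fold, in KO_RA. The call held in 12 of 12 fits that left out 1 array, and the other probe set, at 8.38, 8.39 and 8.51 against 7.38, 7.56 and 7.46, gave -0.96 ± 0.08 (adjusted p = 0.000243 over all probe sets). Since KO and WT are other mice than KO_RA and WT_RA, the lower Cks2 was measured in separate animals on each diet. Cenpa was at 6.08, 5.92 and 6.05 in WT_RA and fell by 0.37 ± 0.09 on the log2 scale in KO_RA (adjusted p = 0.0429), a small difference that did not pass in 9 of 12 fits without 1 array (adjusted p up to 0.142), among them any that left out a WT_RA or KO_RA array. On the normal diet Cenpa was at 5.81, 5.86 and 6.07 in WT, with a difference of 0.20 between KO and WT (adjusted p = 0.306).

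Of all genes 3.95% were called between KO_RA and WT_RA, and of the 35 cell cycle genes 2, or 1 (Cks2) without both WT_RA 3 and KO 1. An unadjusted p under 0.05 was found for 7 (6 lower and 1 higher), against 17.8% of all genes, and no overlap for 9 (6 lower and 3 higher), against 25.6%. The difference was above 0 for 14 of 35, against 52.4% of all genes, and the medians were -0.11 for replication and -0.03 for mitosis genes beside 0.01 for all genes. Without WT_RA 1 the replication median was 0.065, of the opposite sign. Mcm7 was at 7.27, 7.56 and 7.33 in KO_RA and Pcna at 8.82, 8.86 and 8.89, both below every WT_RA array (differences of -0.66 and -0.35, adjusted p of 0.102 and 0.237). The 3 further Mcm7 probe sets gave smaller differences of -0.35, -0.15 and -0.25, and by the last 2 of them the groups overlapped. The mean of Cdkn1a was lower by 1.04 (adjusted p = 0.234), resting on the 2 high WT_RA arrays. Tk1, at 8.60, 9.08 and 9.32 in KO_RA, Rrm1 at 6.33, 6.28 and 6.40, Cdc20 at 6.89, 7.05 and 6.83, Ccnd1 at 7.40, 6.97 and 7.80, Ccne1 at 6.81, 6.62 and 6.84 and Foxm1 at 6.69, 6.87 and 6.65 did not pass.

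**Figure D4:**
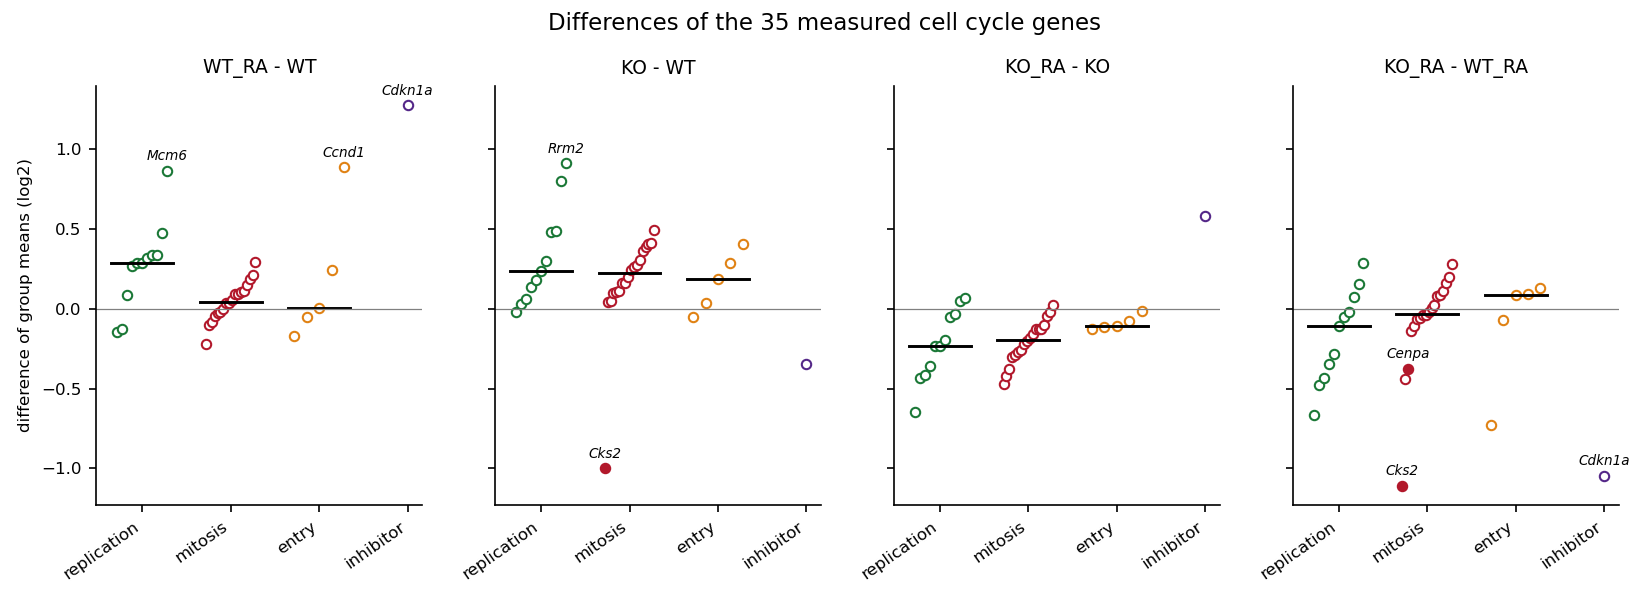
Difference of group means in log2 units for the 35 cell cycle genes in the 4 comparisons, by role, with the median of each role of over 1 gene (line). Filled points passed the test over all genes (Cks2 between KO and WT, Cks2 and Cenpa between KO_RA and WT_RA), and genes with a difference of at least 0.8 in size are named.

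More p53 targets differed between KO_RA and WT_RA. Ccng1, cyclin G1, which despite its name is a p53 target rather than a driver of the cycle, was at 8.98, 8.93 and 8.97 in WT_RA and at 7.83, 7.70 and 7.89 in KO_RA, a fall of 1.15 ± 0.14 (limma adjusted p = 0.000924) that held in 12 of 12 fits without 1 array. Its 2 further probe sets gave -0.84 and -0.93 and passed over all probe sets. In WT and KO mice Ccng1 was at 8.31, 8.16 and 8.65 and at 8.67, 8.32 and 8.24, with a difference of 0.04. Perp, a membrane protein of cell junctions and apoptosis, was called on both diets, at 9.76, 9.88 and 9.61 in WT, 9.86, 9.81 and 9.83 in WT_RA, 8.22, 7.27 and 7.73 in KO and 8.68, 8.44 and 7.77 in KO_RA. It fell by 2.01 ± 0.24 between WT and KO (adjusted p = 0.00197) and by 1.53 ± 0.24 between WT_RA and KO_RA (adjusted p = 0.00456), in 12 of 12 fits each. Fas fell by 0.68 ± 0.17 (adjusted p = 0.0405, not passed in 8 of 12 fits). The list of 19 had 14 differences below 0 between KO_RA and WT_RA, with a median of -0.26, and 12 above 0 between KO and WT, with a median of 0.02. Between KO_RA and KO 0 of the 19 were called, with 7 at an unadjusted p under 0.05. Kupffer and endothelial marker sums of KO_RA (3318 to 3904 and 1983 to 2057) overlapped those of WT_RA (3380 to 6296 and 1903 to 2021). Of 31 other replication genes 25 were below 0 between KO_RA and WT_RA, with a median of -0.15, and 0 were called, with 6 at an unadjusted p under 0.05.

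**Figure D5:**
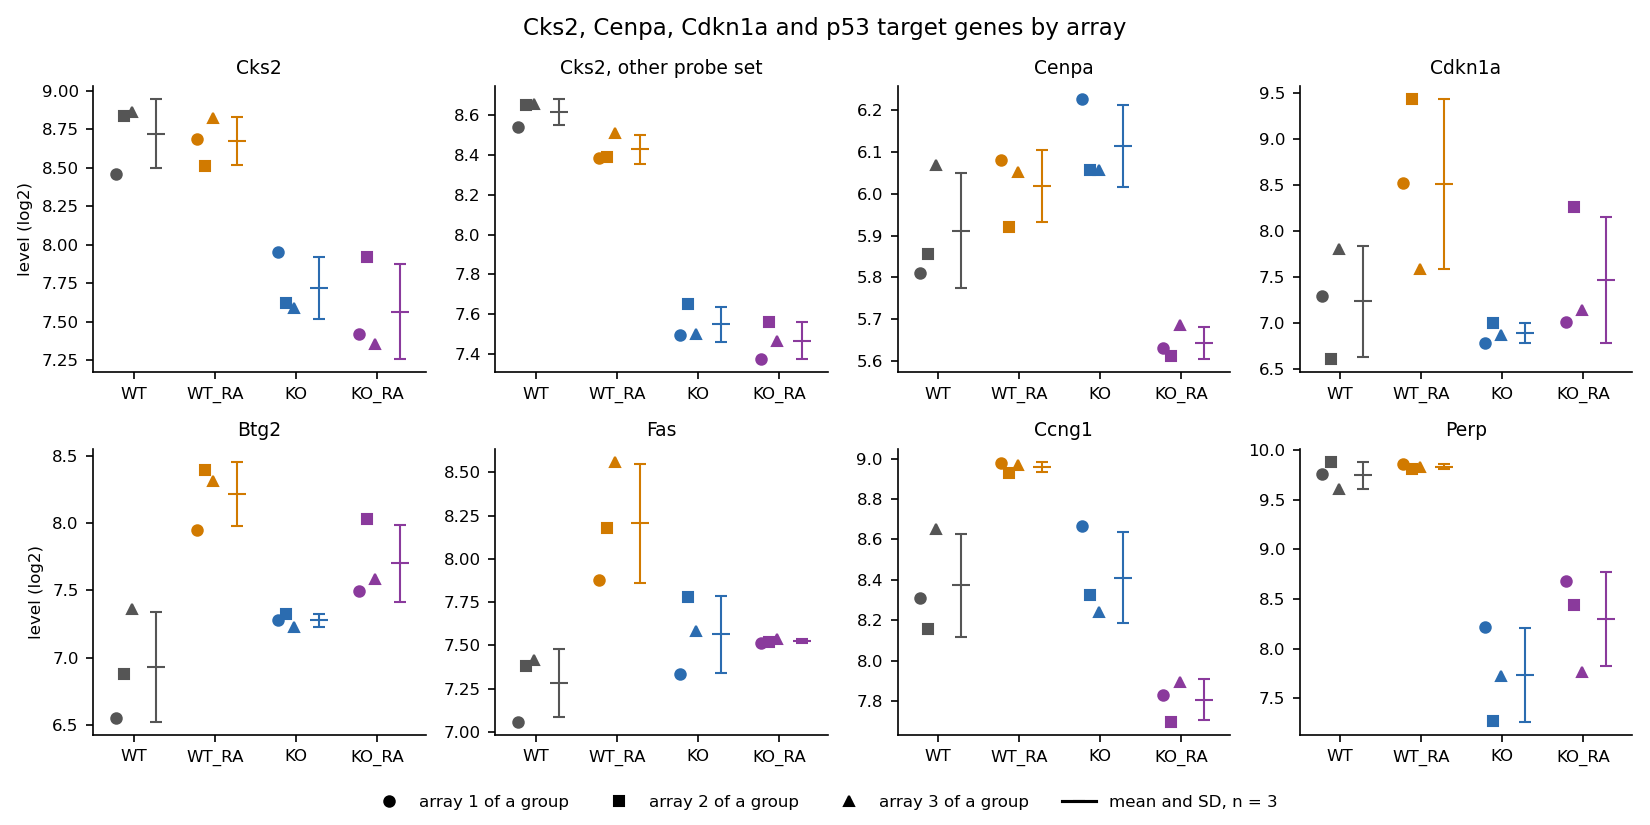
Levels in log2 units on each array with the group mean and SD (n = 3) for Cks2 by both of its probe sets, Cenpa, Cdkn1a and the p53 targets Btg2, Fas, Ccng1 and Perp. Cks2 and Perp are lower on all 6 KO and KO_RA arrays, Ccng1 is lowest on the KO_RA arrays, and Cdkn1a is highest on WT_RA 2 (9.43).

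The last comparison asked whether the RA effect differed between genotypes, as (KO_RA minus KO) minus (WT_RA minus WT). Of all genes 0.00807%, a single gene, were called, and of the 35 cell cycle genes 0. An unadjusted p under 0.05 was found for 12 of 35, all negative, against 11.7% of all genes, and the value was above 0 for 5 of 35, against 45.0%. The medians were -0.48 for the replication genes and -0.17 for the mitosis genes, beside -0.025 for all genes, and without WT_RA 1 they were -0.23 and -0.22. Cenpa had the smallest adjusted p, at 0.165. In Cdk1 and Ccnb2 every WT_RA array lay above every WT array while every KO_RA array lay below every KO array, an opposite separation found in 1.36% of all genes. In wild type mice it was close to a tie. The lowest WT_RA and highest WT values were 5.724 and 5.703 for Cdk1 and 4.796 and 4.794 for Ccnb2. For Kupffer markers the same median was -1.39.

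As a description of likeness, 7090 genes at or above the median probe set were ranked by Pearson's r with the mean deviation of the mitosis genes over the 12 arrays. All genes of the cell cycle lists were left out of this ranking and of the MCM2-7 ranking below, so none could appear. The 10 most alike were Vim (0.894), Msr1 (0.89), Iqgap1 (0.886), Ifi30 (0.88), Endod1 (0.88), Epb41l3 (0.876), Ly86 (0.87), Marcks (0.869), Rgs10 (0.869) and Capn2 (0.861). Msr1, a scavenger receptor of macrophages, Ly86 and Ifi30 are genes of myeloid cells, and Vim is made by cells other than hepatocytes. None of the 10 is on the list of Kupffer cell markers used above, and the rest of the 10 were not assigned to a cell type. Vim was at 6.08, 6.32 and 6.96 in WT, 6.63, 6.48 and 7.05 in WT_RA, 6.65, 8.36 and 7.11 in KO and 6.12, 5.72 and 6.23 in KO_RA. KO 2 is again the highest. With the mean of MCM2-7, a measure added after the values were seen, the most alike were Nup93 (0.857), a nuclear pore protein, and Tcf19 (0.798), a growth-regulated gene. All points share arrays and groups, so the values of r carry no test.

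Most of the remaining cell cycle genes varied little. E2f1, the factor that cyclin-dependent kinases release, was at 5.34, 5.70 and 5.76 in WT, 5.57, 5.49 and 5.58 in WT_RA, 5.84, 5.81 and 5.71 in KO and 5.67, 5.60 and 5.76 in KO_RA. Its groups lay apart between KO_RA and WT_RA alone, by 0.13 (limma adjusted p = 0.578). Top2a, Bub1, Bub1b, Plk1, Aurka, Kif11 and Kif20a, which act in chromosome separation, the spindle checkpoint and the spindle, had differences between -0.20 and 0.26 in all 4 comparisons by the probe sets used. A dimmer Top2a probe set, with a mean of 4.48, differed by 0.48 between KO and WT and by -0.44 between KO_RA and KO, reading 5.42 on KO 2 against 4.43 and 4.52 on the other KO arrays, and did not pass over all probe sets (adjusted p of 0.344 and 0.391). Ccna2, the cyclin of S and G2 phase, differed by 0.30 between KO and WT and by -0.22 between KO_RA and KO, and Aurkb, the kinase partner of Birc5, by 0.24 and -0.18. Mcm2 differed by 0.30 between KO and WT, and Mcm3 by 0.34 between WT_RA and WT. Tyms stayed between 4.21 and 4.58 and Ccne2 between 3.57 and 3.85 on all arrays. Among brighter genes, Cdc20 was at 6.63, 6.73 and 7.13 in WT, 6.80, 6.96 and 7.01 in WT_RA and 6.83, 7.12 and 6.88 in KO, with overlap throughout. Tk1 in WT_RA was at 8.94, 8.70 and 8.5, Rrm1 at 6.5, 6.17 and 6.13 and Rrm2 at 5.89, 5.03 and 6.05, each overlapping the WT arrays. Pcna in KO was at 8.94, 9.20 and 9.03 and Foxm1 at 6.84, 6.88 and 6.84, also overlapping WT. Birc5 was at 4.29, 4.40 and 4.26 in WT_RA and at 4.47, 4.23 and 4.59 in KO_RA.

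Several cell cycle genes could be checked by more than 1 probe set, 67 in all for the 35 genes. Mcm4 by a dimmer probe set was at 5.86, 4.10 and 4.94 in WT_RA against 3.90, 4.07 and 4.10 in WT, WT_RA 1 again being highest. Rrm2 by its other probe sets differed by 0.34 and 0.63 between KO and WT, against 0.91 by the one used, so the direction was shared and the size was not. Mcm7 by its further probe sets differed by -0.08, 0.09 and 0.16 between WT_RA and WT, against 0.34 by the one used, WT_RA 1 being the highest of its group in each. Mcm6 by a dimmer probe set differed by 0.33 between KO and WT, against 0.80. Cdkn1a by its further probe set differed by -0.30 between KO_RA and WT_RA, against -1.04. The probe sets read for Mcm2 and Mcm7 are of the kind that can match related transcripts, and those for Cdc20, Aurkb and Rrm2 of the kind that can cross-hybridize, which limits what their levels show.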

How the data were processed

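Total liver RNA of 12 mice was hybridised to Affymetrix mouse arrays. The authors deposited log2 values per probe set. The submitters' processing notes name RMA and Partek 6.11, whereas the methods name MAS5 with a detection filter, which was not repeated here. RMA quantile-normalizes, so total RNA per cell is not measured. Of 22690 probe sets, 64 controls, 691 with several symbols and 1555 with none were not used, and 20380 gave 12393 genes, each read by its brightest probe set. No filter on dim genes was applied, so the test covers genes near the floor.

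Groups and replicate numbers are those of the sample titles, where each array is named a biological replicate; p-values measure the spread between these samples. limma 3.58.1 in R 4.3.3 fitted 1 coefficient per group to the 12 arrays (8 residual degrees of freedom, two-sided), with Benjamini-Hochberg adjustment over all genes of a contrast. Called means an adjusted p under 0.05. Precision is limited by 3 arrays per group. The fit was tested on simulated data, where 34.5 to 42.5% of changes of 0.5 and 93.5 to 96.5% of changes of 1 were recovered. Noise there was drawn separately for each gene, so arrays high for many genes at once were not covered. Per-array list values are median deviations from the mean of the 12 arrays.

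The members and the lists (further cell cycle genes, p53 targets, markers) were chosen with earlier results of these data known, so they give no independent support to a pattern those results showed. Named are called members, members at or above the median probe set, the 3 of each role with the widest group means, up to 4 called genes of another list per contrast, and the most alike genes. Mcm2 to Mcm5, Mki67, Nusap1, Cdk1, Ccnb2, Ube2c, Mdm2 and Egr1 are named in addition, chosen after their values were seen. Same-numbered arrays of different groups showed no common deviation as a set (18 pairs, correlations of -0.458 to 0.266, 5 over 0.1). No pairing by number was seen and the main fit used none, but with 3 arrays per group this check cannot exclude one. Alternatives were other probe set choices, normalizations, weights, a block and leaving out arrays.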

Additional observations from a re-analysis of the deposited data

Results flagged for a closer look

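Cdk1, the kinase of mitosis, separated the arrays in opposite directions under RA: all WT_RA arrays above all WT arrays (0.29) and all KO_RA arrays below all KO arrays (-0.42). The difference of the RA effects was -0.7146 ± 0.20 (SE), which did not pass the test (limma adjusted p = 0.236), and without WT_RA 1 it was -0.56. Ccnb2, a cyclin of Cdk1, did the same with RA effects of 0.15 and -0.38. Its difference was -0.5287 ± 0.16 (limma adjusted p = 0.254), from levels of 4.55 to 5.29 near the lower quartile of the arrays, and without KO 2 it was -0.43. In wild type mice both separations were narrow, the lowest WT_RA and highest WT values being 5.724 and 5.703 for Cdk1 and 4.796 and 4.794 for Ccnb2. With 3 arrays in a group, no test for an outlying array was run, and the high values of WT_RA 1 and KO 2 are descriptions.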

How the results depend on the processing

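Under other settings, 317 values were counts or medians of cell cycle genes, of which 34 moved, and 410 values were single genes, of which 56 no longer passed, 3 newly passed and 0 turned their sign. With array weights, which leaned on few arrays (7.12 on WT 2, 0.32 on KO 1), 2 genes were called for RA in wild type mice (Ccne1 and Cdkn1a), 8 for KO against WT, 1 for RA in KO mice (Cenpa), 4 for KO_RA against WT_RA and 1 for the difference of RA effects, beside 1070, 1734, 303, 1064 and 247 of all 12393 genes. Averaging a gene's probe sets gave 2 calls for KO against WT (Rrm2 and Cks2) and 1 for RA in KO mice (Cenpa), where further quantile normalization also gave 1. For KO_RA against WT_RA 1 call, Cks2, stood with the replicate block, an intensity trend with robust variance, the compared groups alone, genes at or above the median signal, or without both WT_RA 3 and KO 1. Cenpa, with a mean of 5.92, lay below the median signal and so was not tested in that setting. No other count changed with the replicate block. Among genes at or above the median signal (10 of the 35) the median difference was 0.254 for RA in wild type mice, 0.076 for KO against WT and -0.173 for KO_RA against WT_RA, and the replication median minus the mitosis median was 0.526 for KO against WT and 0.415 for KO_RA against WT_RA, with 2 mitosis genes left.

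Leaving out 1 array gave 0 to 1 calls for KO against WT, 0 to 1 for RA in KO mice and 1 to 2 for KO_RA against WT_RA. The replication median minus the mitosis median then lay between 0.035 (without WT_RA 1) and 0.318 for RA in wild type mice, between -0.327 (without WT_RA 2) and 0.097 (without WT_RA 1) for KO_RA against WT_RA, and between -0.446 and -0.008 (without WT_RA 1) for the difference of RA effects. The causes were not tested. Signal limits these data: 9 of 18 mitosis genes lay below the lower quartile of all probe sets, so a small change in few cycling cells may not be seen.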
